A study of Saccharomyces cerevisiae with 6 samples.

Results

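Budding yeast lacking both HST3 and HST4 were compared with wild type across all protein-coding genes. The members were the 2 libraries titled as the double deletion and the 2 titled wild type, 4 of the 6 libraries of the series. The other 2 libraries are an rtt109 deletion, used here for the shared estimate of spread and for a direct comparison between the mutants. All cells grew exponentially in YPD, a rich glucose medium. RNA was DNase-treated and mixed with total RNA of fission yeast at a mass ratio of 10 to 1 before stranded poly(A) libraries were made.

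The strains differ in more than the deletions, per the labels. Wild type was MATa with ade2-1::ADE2, leu2-3 112 and his3-11 15; further alleles were trp1-1, can1-100 and ura3-1. It also carried a tagged RNA polymerase II subunit (Rpb3-3HA::TRP), the nucleoside kinase and transporter insertions URA3::GDP-TK(7x) and AUR1c::ADH-Hent1, and ∆bar1::HIS3. The double mutant had those same alleles with Δhst3::HygMX and Δhst4::NatMX and was labelled MATalpha. The rtt109 strain was MATa ade2-1 GAL psi+ with RAD5+, ∆rtt109::Kan, ∆bar1::His3 and the same TK and transporter insertions, and no RPB3 tag was listed for it. Labels do not say whether replicates came from separate cultures, nor whether each strain was 1 clone. The spread between libraries, on which the p-values rest, may therefore be technical. In the gene test that spread is mostly a value pooled over all genes (37.7 prior against 3 residual degrees of freedom). It is less the spread of a gene's own libraries.

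Hst3 and Hst4 are sirtuins, NAD-dependent deacetylases that remove acetyl groups from lysine 56 of histone H3 (H3K56). The acetyl group is placed by Rtt109 with the chaperone Asf1 on new histone H3 before it is built into chromatin behind replication forks, and it is normally lost before the next S phase. Without both sirtuins it persists through the cell cycle, and such cells are known for sensitivity to DNA damage and unstable genomes. An rtt109 deletion, by contrast, lacks the mark.

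The level of a gene is its mean coverage per base on the sense strand, scaled by the authors to the fission yeast spike-in. It can be compared between genes as well as between libraries. HST3 stood at 1.32 and 1.36 in the wild-type libraries and at 0.0131 and 0.00999 in the mutants. HST4 stood at 0.470 and 0.672 in wild type and at 0.0617 and 0.00648 in the mutants. Both genes fit their labels in every library, and they were the largest falls, with log2 fold changes of -4.32 ± 0.37 (SE) and -2.81 ± 0.38. RTT109 was present in the mutants, at 0.996 and 0.856 against 0.763 and 0.830 in wild type. BAR1 was 0 in all 6 libraries, as deleted.

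Mating type did not follow the label. Genes that alpha cells keep silent were expressed in the libraries labelled MATalpha, and none of them passed the test against wild type. STE2, the receptor for alpha factor, had levels of 22.6 and 23.4 in the mutants and 15.5 and 30.2 in wild type. Of 5 alpha-specific genes, 2 passed the filter on low values, AFB1 and SAG1. Both had the mutant libraries above both wild-type libraries (20.9% of all genes did), with a median log2 fold change of 0.59, and 0 passed the test. STE3, the receptor for a-factor, was low, at 0.0209 and 0.0186 in the mutants. MF(ALPHA)1, which encodes alpha factor, was at 0.327 and 0.345 in the mutants and at 0.0375 and 0.0271 in wild type. Of the 6 a-specific genes tested, 0 passed, and the median log2 fold change was 0.30. Strain marker genes did not pass the test either. ADE2 was at 0.517 and 0.607 in wild type and 0.896 in each mutant. LEU2 was at 8.67 and 10.4 against 6.11 and 4.88, and URA3 at 34.4 and 46.1 against 26.2 and 27.7. HIS3, TRP1, CAN1, RPB3 and RAD5 had log2 fold changes of 0.34, 0.03, -0.30, 0.11 and 0.09.

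Across the genome, 122 of the 5211 genes tested rose in the double mutant (2.34%) and 7 fell (0.134%), 129 in all (2.48%). The call was a Benjamini-Hochberg adjusted p under 0.05 in a limma fit of all 6 libraries on log2 of the level plus 0.0587, which shrinks the fold change of genes with little signal. At an unadjusted p under 0.05 there were 416 genes. The number of calls rests on the rtt109 libraries, which share the estimate of spread. With the 4 libraries alone the same fit called 2 genes, HST3 and PIR3. Leaving out either rtt109 library gives that same result, since a lone rtt109 library adds nothing to the estimate of spread. Without wild-type replicate 1, 77 genes rose and 3 fell; without wild-type replicate 2, 93 rose and 16 fell; without mutant replicate 1, 70 rose and 25 fell. Of the called genes, 34 that rose and 2 that fell were called in at least 9 of 14 alternative settings. The settings without an rtt109 library and with the 4 libraries alone count separately among the 14, although their result is the same. Both mutant libraries lay above both wild-type libraries in 1090 genes (20.9%) and below both in 464 (8.90%). Of the called genes, 120 risen and all 7 fallen genes did not overlap. The exceptions, ZPS1 and TDH1, are described below.

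Most genes that rose were little expressed in wild type. With the genes ranked by wild-type level into 5 equal groups, 88 of the 122 rises lay in the lowest, where 8.44% rose, and 3 in the highest, where 0.288% rose. The median wild-type level was 0.258 for the risen genes and 1.71 for all genes tested. A gene of this kind could pass the filter on low values through its level in a mutant, so the count in the lowest group is not a rate for all silent genes. Fold changes of the risen genes ran from 1.27 to 4.37 on the log2 scale, with a median of 1.75. Replicate 1 of the mutant was the higher in 88 of the 122.

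**Figure D1:**
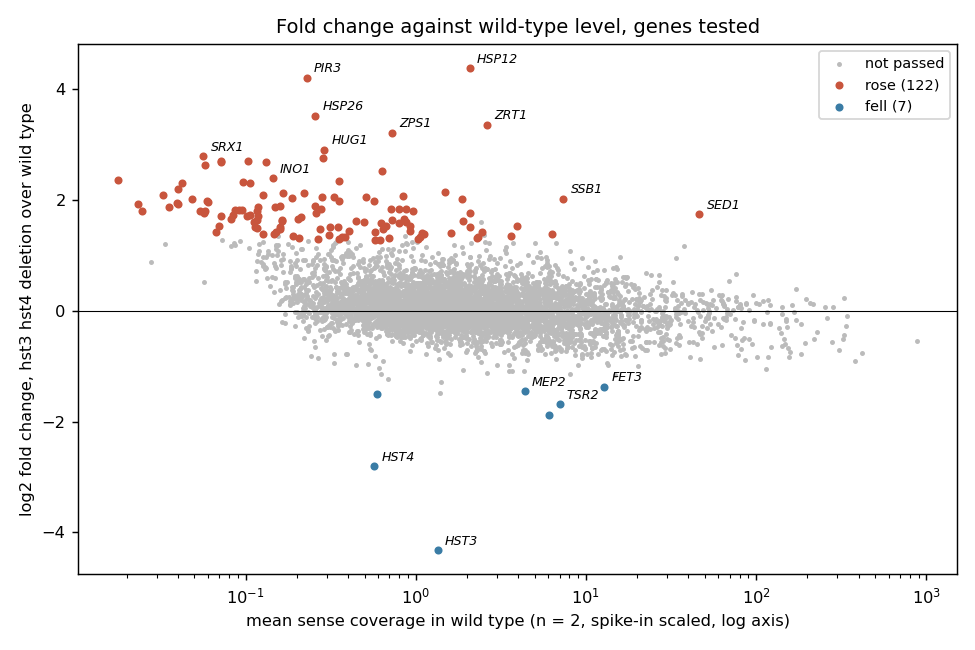
Log2 fold change of the double deletion over wild type (vertical axis) against mean wild-type sense coverage (horizontal log axis) for the 5211 genes tested; each point is a gene, red for the 122 that rose and blue for the 7 that fell. The red points crowd at the left, and SSB1 and SED1 stand apart at high wild-type levels.

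The upstream regions of 5 risen genes are shown because each holds a short sequence known to be read by the regulator of its group. Each is 160 bases of the RefSeq sequence, assembly R64, written 5′ to 3′ along the gene's own strand, from the 500 bases before the start codon. Capitals mark the motif on either strand.

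HSP12, chrVI:106767-106926, plus strand, stress response element AGGGG: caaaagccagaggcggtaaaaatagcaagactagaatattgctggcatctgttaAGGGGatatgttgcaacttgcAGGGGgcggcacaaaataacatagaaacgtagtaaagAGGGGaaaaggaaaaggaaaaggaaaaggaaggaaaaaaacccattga
HSP26, chrII:381549-381708, plus strand, stress response element AGGGG: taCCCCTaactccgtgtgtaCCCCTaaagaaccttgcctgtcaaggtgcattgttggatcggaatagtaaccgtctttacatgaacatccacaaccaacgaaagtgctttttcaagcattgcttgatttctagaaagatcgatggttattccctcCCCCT
SRX1, chrXI:277900-278059, plus strand, Yap1 site TTACTAA: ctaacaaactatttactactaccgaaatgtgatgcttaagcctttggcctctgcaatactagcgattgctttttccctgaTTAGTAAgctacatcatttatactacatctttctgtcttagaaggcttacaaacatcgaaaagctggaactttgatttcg
ZRT1, chrVII:20694-20853, plus strand, Zap1 site: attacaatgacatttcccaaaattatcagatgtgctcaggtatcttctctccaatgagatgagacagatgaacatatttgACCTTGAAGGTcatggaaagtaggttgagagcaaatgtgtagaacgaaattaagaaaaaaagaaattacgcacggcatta
INO1, chrX:136065-136224, minus strand, Ino2 and Ino4 core CATGTG: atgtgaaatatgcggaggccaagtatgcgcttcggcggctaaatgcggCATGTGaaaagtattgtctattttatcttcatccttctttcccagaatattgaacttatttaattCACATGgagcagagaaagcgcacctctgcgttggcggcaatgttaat

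A match describes letters and not a bound site. In the 500 bases before the start codon, AGGGG on either strand was present for 84 of the 122 risen genes (68.9%) and for 34.1% of all genes tested. At least 2 copies were present for 30.3% of the risen genes and 8.19% of all genes. For the Yap1 site the shares were 17.2% and 12.2%, for CATGTG 14.8% and 12.8%, and for ACGCGT, the MluI cell cycle box, 4.92% and 5.62%. The Zap1 site occurred before 9 genes tested, 1 of them, ZRT1, among those that rose. TGCACCC, the core of the iron regulator Aft1, preceded 0.820% of risen genes and 2.15% of all, and CCAAT, the Hap2 core, 58.2% and 62.7%.

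Of the lists examined, the general stress genes held the most rises. These are genes that the zinc-finger factors Msn2 and Msn4 switch on through AGGGG when growth slows or cells are stressed. In the rtt109 deletion, 20 of the 27 tested rose against the same wild-type libraries, with a median log2 fold change of 1.57. There, 130 of all 5211 genes rose. In the double mutant, 16 of the 27 rose and 0 fell (2.34% of all genes rose). Their median log2 fold change was 1.51 beside 0.037 over all genes tested. Both mutant libraries lay above both wild-type libraries in 23 of the 27 (20.9% of all genes did). The number that rose was 9 without mutant replicate 1, 7 with each library centred and 0 with the 4 libraries alone, with medians of 1.37, 1.44 and 1.51; without either wild-type library or mutant replicate 2 it was 13 to 16.

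HSP12, a small membrane-associated protein that accumulates under almost any stress, was at 0.560 and 3.59 in wild type and at 52.5 and 18.3 in the mutants. The groups did not overlap, although the wild-type libraries differ widely for this gene. Its log2 fold change was 4.37 ± 0.49 (limma adjusted p = 6.27e-08), the largest in this fit; without wild-type replicate 1 it was 3.09, below the 4.35 of PIR3, and without wild-type replicate 2 it was 5.65.

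HSP26, a small heat shock chaperone, was at 0.341 and 0.173 in wild type and at 4.52 and 2.56 in the mutants, a log2 fold change of 3.51 ± 0.38. DDR2, a stress gene of unknown biochemical role that was first found as induced by DNA damage, was at 0.431 and 0.139 against 2.52 and 1.65. MOH1 was at 0.126 and 0.138 against 1.90 and 0.710. In all of these the lower mutant library exceeded the higher wild-type library. GRE1, a hydrophilin (a water-binding stress protein), went from 0.0614 and 0.0826 to 0.738 and 0.804, and SIP18, its relative, from 0.163 and 0.0909 to 1.14 and 0.439. The remaining rises of this group, with log2 fold changes from 1.42 to 2.12, were PHM8, TFS1, STF1, GAD1, PAI3, SOL4, RTN2, ALD4, CTT1 and PHM7. CTT1, the cytosolic catalase, rose by 1.47 on the log2 scale, from 0.304 and 0.246 to 1.02 and 0.724.

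Heat shock chaperones under the other stress regulator, Hsf1, gave a different count, with 0 of 22 past the test and a median of 0.24, which turned to -0.12 without wild-type replicate 2. SSA4, an inducible cytosolic Hsp70, had the smallest p of these. Its levels were 0.674 and 0.694 in wild type and 1.56 and 1.52 in the mutants (limma adjusted p = 0.119). HSP104, the disaggregase, was at 6.91 and 3.55 against 8.04 and 5.53.

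**Figure D2:**
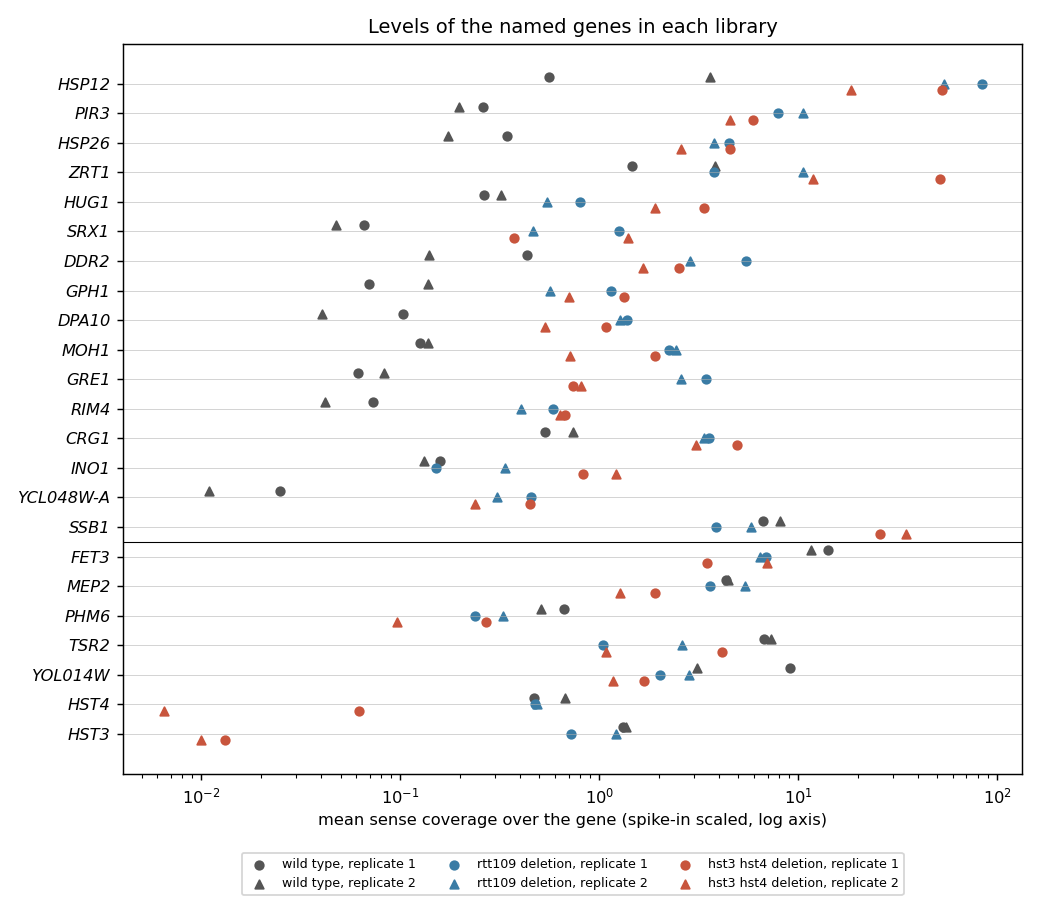
Sense coverage of the named genes in all 6 libraries on a log axis: grey wild type, blue rtt109 deletion, red double deletion, circles replicate 1 and triangles replicate 2. Above the line are 15 risen genes and SSB1, below it the 7 that fell. Red points lie right of grey points in the upper block and left of them in the lower block.

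Carbon reserves and glucose-repressed metabolism held further rises. GPH1, glycogen phosphorylase, which releases glucose from glycogen, was at 0.0692 and 0.138 in wild type and at 1.34 and 0.705 in the mutants, a log2 fold change of 2.70 ± 0.39. GSY1, TSL1 and PGM2 also rose, by 1.48, 1.37 and 1.32. Those encode a glycogen synthase, a subunit of the trehalose synthase complex and phosphoglucomutase. Together 4 of 16 glycogen and trehalose genes rose (2.34% of all genes did), with a median of 0.69. For the rtt109 deletion it was 1 of the 16 (130 of all 5211 genes rose), with a median of 0.45. SGA1, a glucoamylase of sporulating cells that also degrades glycogen, was at 0.0483 and 0.0487 against 0.328 and 0.429.

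Of the hexose kinases, HXK1 went from 0.487 and 0.529 to 2.49 and 2.11, and GLK1 from 2.09 and 1.71 to 5.82 and 5.98. These are the forms made when glucose runs low. HXT1, the transporter induced by high glucose, was at 11.3 and 10.4 against 6.57 and 7.02 and did not pass (limma adjusted p = 0.754). In that list 2 of 12 genes rose, beside 2.34% of all genes.

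All 16 genes of the tricarboxylic acid cycle had both mutant libraries above both wild-type libraries, against 20.9% of all genes. Their median was 0.75 (0.62 in the rtt109 deletion against the same wild-type libraries, where 0 passed). In the double mutant 1 of them passed, CIT3, a mitochondrial citrate and methylcitrate synthase. CIT3 was at 0.0794 and 0.111 against 0.501 and 0.457, a log2 fold change of 1.81 ± 0.36. Its neighbour on chromosome 16, PDH1, a methylcitrate dehydratase of propionate breakdown, went from 0.252 and 0.265 to 0.985 and 1.06. SDH2, a succinate dehydrogenase subunit, was at 2.65 and 2.50 against 4.93 and 6.24 (adjusted p = 0.131). Of 12 gluconeogenesis and glyoxylate genes that passed the filter 1 rose (2.34% of all genes did), SFC1, the succinate-fumarate carrier of mitochondria. SFC1 was at 0.0444 and 0.0362 against 0.380 and 0.258. Of the same 12 genes 4 rose in the rtt109 deletion (130 of all 5211 genes did). Their median was 0.85 there and 0.96 in the double mutant. None of 33 respiratory chain and ATP synthase genes passed, with a median of 0.40.

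Oxidative defence genes rose in 6 of 24 cases (2.34% of all genes rose), with a median of 0.49 beside 0.037 over all genes. The rtt109 deletion had 3 rises among the 24 (130 among all 5211 genes), with a median of 0.27 beside -0.37. SRX1, sulfiredoxin, which reactivates oxidized peroxiredoxins, was at 0.0653 and 0.0473 in wild type and at 0.371 and 1.39 in the mutants, a log2 fold change of 2.78 ± 0.44. The mutant libraries differ widely here, yet both exceed wild type. PRX1, the mitochondrial peroxiredoxin, was at 1.52 and 2.62 against 7.51 and 6.35. OYE3, an NADPH oxidoreductase, was at 0.139 and 0.0930 against 0.653 and 0.449. GTT2, SOD2 and CTT1 rose too, by 1.59, 1.52 and 1.47. ECM4, a glutathione transferase outside that list, rose from 0.322 and 0.237 to 1.28 and 1.40.

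Genes of the cell wall rose in 3 of 19 cases (2.34% of all genes rose), with a median of 0.52. Against the same wild-type libraries, 5 of the 19 rose in the rtt109 deletion (130 of all 5211 genes did), with a median of 0.67. PIR3, a wall glycoprotein with internal repeats, stood at 0.259 and 0.198 in wild type and at 5.90 and 4.56 in the mutants. Its log2 fold change of 4.20 ± 0.37 was called in all 14 alternative settings (limma adjusted p = 7.00e-11). SED1, the major wall protein of stationary phase cells, was already high in wild type, at 48.5 and 44.2, and reached 151 and 158. YPS6, a surface-anchored protease, rose by 1.86 on the log2 scale. HPF1, a mannoprotein known for reducing protein haze in wine, went from 0.529 and 0.612 to 2.49 and 2.35.

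Zap1 switches these genes on when zinc is scarce. ZRT1, the high-affinity zinc transporter, was at 1.46 and 3.81 in wild type and at 51.4 and 11.8 in the mutants, a log2 fold change of 3.35 ± 0.48. It was 2.29 without mutant replicate 1 and 4.41 without mutant replicate 2, and 2.67 and 4.02 without wild-type replicate 1 and 2. With the 4 libraries alone ZRT1 did not pass (limma adjusted p = 0.203). ZPS1, a secreted protein made under zinc shortage, was at 0.302 and 1.14 in wild type and at 36.5 and 0.952 in the mutants. The groups overlap, so the call for ZPS1 (3.21 ± 0.71, adjusted p = 0.00390) rests on mutant replicate 1; without it the log2 fold change was 0.62 (adjusted p = 0.791). With INO1, which is on the inositol list too, these were the 3 rises among 18 zinc genes (2.34% of all genes rose). The median of the 18 was 0.36. For the rtt109 deletion it was -0.22, and 0 rose.

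TDH1, a glyceraldehyde phosphate dehydrogenase, was the other called gene whose groups overlap, at 1.58 and 0.165 in wild type and 3.55 and 1.22 in the mutants. Without mutant replicate 1 its log2 fold change went from 1.82 to 1.07 (limma adjusted p = 0.269), and without wild-type replicate 2 to 0.39.

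INO1, inositol phosphate synthase, makes the inositol of membrane lipids and depends on Ino2 and Ino4. It was at 0.158 and 0.131 in wild type, at 0.152 and 0.335 in the rtt109 deletion, and at 0.830 and 1.21 in the double mutant. Its log2 fold change over wild type was 2.39 ± 0.38 (adjusted p = 4.99e-05). Of 17 inositol and phospholipid genes it was the 1 that rose (2.34% of all genes did), and their median was -0.01.

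Of the DNA damage genes, HUG1 had the largest rise. HUG1, an inhibitor of ribonucleotide reductase induced by the checkpoint, was at 0.262 and 0.318 in wild type and at 3.35 and 1.91 in the mutants. The log2 fold change was 2.90 ± 0.38 (limma adjusted p = 1.80e-06), over 3 usable bins of a short gene. The 19 damage and ribonucleotide reductase genes tested had a median log2 fold change of 0.40, and 12 of them had both mutant libraries above both wild-type libraries, beside 20.9% of all genes.

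RNR2 and RNR4, small subunits of ribonucleotide reductase, did not pass. RNR2 was at 3.91 and 2.83 against 6.98 and 6.79 (adjusted p = 0.193), and RNR4 at 7.91 and 11.1 against 18.2 and 18.1 (adjusted p = 0.287). RNR3, the inducible large subunit, fell under the filter, at 0.0554 and 0.0389 against 0.177 and 0.234. DUN1, the kinase that activates these genes, had a log2 fold change of 0.68. The 19 recombination genes tested had a median of 0.28.

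Of the 29 genes on the meiosis list, 11 passed the filter on low values. Of those, 3 rose, SPO20, HOP1 and DIT1 (2.34% of all genes tested rose). Genes that are near-silent in wild type pass that filter largely through their level in a mutant, so this count does not stand for the list. RIM4, among the 15 largest rises, and HED1, chosen after its values were seen, are not on that list. HED1, a regulator of meiotic recombination, was at 0.0980 and 0.113 in wild type and at 0.550 and 0.428 in the mutants. RIM4, a translational repressor of meiotic cells, was at 0.0729 and 0.0420 against 0.671 and 0.637, a log2 fold change of 2.63 ± 0.37. SPO20, a membrane-fusion protein of spore formation, was at 0.0629 and 0.0562 against 0.495 and 0.330. HOP1, a protein of meiotic chromosome axes, and DIT1, an enzyme of the spore wall, rose by 1.53 and 1.82. Levels stayed under 1 for RIM4, HED1, SPO20 and HOP1 in every library.

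NAD is the cofactor that sirtuins consume. BNA2, the dioxygenase that opens the route from tryptophan to NAD, was at 0.124 and 0.0879 in wild type and at 0.630 and 0.880 in the mutants, a log2 fold change of 2.30 ± 0.37 (adjusted p = 4.99e-05). It was the 1 rise of 16 NAD genes (2.34% of all genes rose), whose median was 0.13. The other sirtuins did not pass. SIR2 was at 0.578 and 0.529 against 0.302 and 0.619, HST1 at 2.62 and 3.09 against 2.58 and 2.50, and HST2 at 1.63 and 1.41 against 2.00 and 2.41. None of 13 sirtuin and silencing genes passed, with a median of -0.07.

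Of 15 pyridoxine and thiamine genes that passed the filter, 5 rose, beside 2.34% of all genes. The rtt109 deletion had 6 rises among these 15, beside 130 among all 5211 genes. SNZ1 and SNO1, neighbours that make pyridoxal phosphate, rose by 2.13 and 2.04 on the log2 scale. SNZ1 went from 0.713 and 2.25 to 4.80 and 6.93. SNZ2, THI4 and THI7 rose by 1.71, 1.89 and 1.83. SNZ2 has a close copy, and the seripauperins are a family of near-identical genes, so their reads may be assigned to a relative. Of 26 seripauperins with a value, 8 passed the filter on low values and 2 of those rose (PAU2 and PAU17). Genes near-silent in wild type pass that filter largely through a mutant, so this count does not stand for the family. In nitrogen metabolism DAL4, an allantoin permease, and GDH3, a glutamate dehydrogenase, rose by 1.79 and 1.49. Of 17 autophagy and vacuolar protease genes, 2 rose (2.34% of all genes did), ATG19 and APE1, the receptor and the cargo of the same transport route, by 1.28 and 1.43. The median of those 17 was 0.37, and 0.07 without mutant replicate 1. GPP2, a glycerol phosphatase on the phosphate list, rose by 1.42.

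Unlike most risen genes, SSB1 was well expressed in wild type. It encodes an Hsp70 that binds new chains as they leave the ribosome. SSB1 was at 6.61 and 8.10 in wild type, at 3.86 and 5.77 in the rtt109 deletion, and at 25.6 and 34.8 in the double mutant. Its log2 fold change over wild type was 2.02 ± 0.37 (adjusted p = 0.000472). SSB2, a nearly identical copy, was at 25.8 and 23.8 against 19.7 and 25.0, with a log2 fold change of -0.16. Reads of such a pair can be assigned to either gene; the values came from the 20 and 18 bins of each that held numbers, and how reads shared by both were counted is not given in the sources used here.

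Among the 15 largest rises without overlap, 3 belong to no group above. CRG1, a methyltransferase known for resistance to cantharidin, was at 0.532 and 0.738 in wild type and at 4.92 and 3.06 in the mutants. DPA10, next to CDA1 on chromosome 12, was at 0.103 and 0.0402 against 1.08 and 0.532. YCL048W-A was at 0.0248 and 0.0109 against 0.448 and 0.238. In each of them both mutant libraries exceeded both wild-type libraries.

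Apart from HST3 and HST4, 5 genes fell. FET3, the multicopper oxidase of iron uptake, was at 14.1 and 11.6 in wild type and at 3.46 and 6.96 in the mutants, -1.37 ± 0.38 (adjusted p = 0.0364). It was the 1 fall among 19 iron genes (0.134% of all genes fell). Their median was -0.43 and ran from -0.41 to -0.32 without any 1 of the 4 libraries. In the rtt109 deletion 3 of the 19 fell and 1 rose (49 and 130 of all 5211 genes did). The median there was -0.40, beside -0.37 over all genes. FTR1, its partner permease, was at 9.28 and 9.64 against 4.25 and 6.36 and did not pass (adjusted p = 0.425). MEP2, an ammonium transporter, was at 4.31 and 4.42 against 1.90 and 1.28, -1.45 ± 0.37. TSR2, a factor of ribosome maturation, was at 6.71 and 7.30 against 4.14 and 1.08. PHM6, induced by phosphate shortage, was at 0.666 and 0.509 against 0.268 and 0.0965. YOL014W, of unknown function, was at 9.09 and 3.11 against 1.67 and 1.17. Each of these 5 lost its call in most alternative settings: FET3, TSR2, PHM6, MEP2 and YOL014W were called in 2, 3, 4, 5 and 6 of 14. Without mutant replicate 2 the log2 fold changes of TSR2, PHM6 and MEP2 were -0.75, -0.97 and -1.18 and none passed, and without mutant replicate 1 that of FET3 was -0.87. Without wild-type replicate 1 none of the 5 passed, and YOL014W was at -1.12; without wild-type replicate 2 FET3, TSR2 and MEP2 did not pass.

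No gene of 25 of the 46 lists passed. Ribosome assembly genes had a median of -0.28 over 73, and of 0.06 without wild-type replicate 2. TSR2 was the 1 fall among them (0.134% of all genes fell). Translation factors had a median of -0.20 over 31. RNA polymerase I and III genes had a median of -0.19, and RNA polymerase II genes -0.18, the latter turning to 0.08 without wild-type replicate 2. Genes for core and variant histones had a median of -0.32 over 11. HTA1, an H2A gene, was at 123 and 105 in wild type and at 78.3 and 38.3 in the mutants (adjusted p = 0.208), and HHT2, an H3 gene, at 59.8 and 69.3 against 60.3 and 55.6. Histone genes have close copies, between which reads may be shared. DNA replication genes had a median of 0.01 over 48, and targets of the S-phase regulators SBF and MBF one of 0.22 over 23, which was -0.11 without wild-type replicate 1 and 0.52 without wild-type replicate 2. Genes of late mitosis and early G1 had a median of -0.40 over 16.

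Library-wide levels did not separate the groups. The median log2 level over genes was 0.64 and 0.94 in wild type and 0.93 and 0.80 in the mutants, a difference of 0.07 (exact permutation test, two-sided, p = 1; the smallest p that 2 against 2 can give is 0.33). Without wild-type replicate 1 this difference turned to -0.08. Median log2 fold changes of the 4 pairs of libraries ran from -0.13 to 0.26. Summed coverage was 678558 and 784679 in wild type and 763469 and 654763 in the mutants. Coverage was tilted to the 3′ side of genes a little more in the mutants, at 0.66 and 0.52 on the log2 scale against 0.44 and 0.46, with p = 0.33 by the same exact test. That tilt, a sign of RNA quality, was larger in both double-deletion libraries than in both wild-type libraries. The rtt109 libraries had 0.61 and 0.42. Its part in the gene calls was not tested.

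The series concerns replication timing, and the table gives a timing score whose direction its header does not state. Bins at replication origins had a mean score of 37.7, bins at centromeres 36.5, bins at telomeres 6.91 and all bins 47.8. The median over telomere bins was 0, and whether 0 stands for a missing score is not stated. Origins, centromeres and telomeres all lay below all bins, so no direction is assigned to the score here. In 4 equal groups of genes from low to high score, 38, 32, 30 and 22 genes rose, or 2.92%, 2.46%, 2.30% and 1.69%. The median log2 fold changes were 0.11, 0.06, 0.02 and -0.02. For each library, the median level of the highest group less that of the lowest was -0.06 and 0.00 on the log2 scale in wild type, and -0.16 and -0.09 in the mutants. The mutants were lower in both libraries, by a mean of 0.10, with p = 0.33, the smallest the exact test allows. A score of 0 was given for 28 tested genes, and without them 40 and 22 genes rose in the lowest and highest groups.

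By chromosome, median fold changes less that of all genes ran from -0.05 on chromosome 4 to 0.15 on chromosome 6. Chromosome 6 had 6 rises among 95 genes (6.32%), HSP12 and HXK1 among them. Distance to a chromosome end was taken to position 1 or to the end of the last gene. Within 20 kb 7 of 114 genes rose (6.14%), from 20 to 50 kb 15 of 384 (3.91%), and farther in 100 of 4713 (2.12%). Median log2 fold changes were 0.10, 0.08 and 0.03. The groups were not matched for wild-type level.

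**Figure D3:**
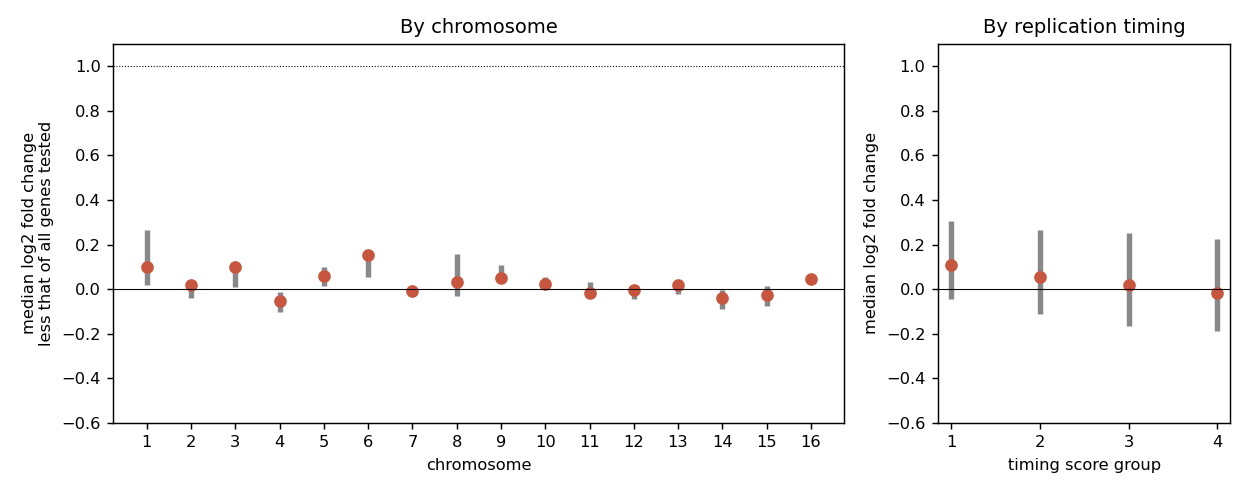
Left, median log2 fold change by chromosome less that of all genes tested; right, median by group of the replication timing score, low to high. Red points come from the fit, grey bars span the 4 pairs of libraries, and the dotted line marks a log2 value of 1. Medians stay between -0.05 and 0.15 on the left and fall from 0.11 to -0.02 on the right.

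Some risen genes were next to each other in the order of tested genes, in which genes left out of the test are skipped. Among tested genes in map order, 28 of the 122 risen genes (23.0%) had a risen gene next to them, as did 211 of the 5089 other genes (4.15%). There were 13 such runs. HPF1, ZPS1 and FRE7 formed 1 of the 2 runs of 3, on chromosome 15, with PHM7, ATG34 and ATG19 the other. The first of these runs depends on ZPS1, whose call rests on mutant replicate 1. FRE7, a metalloreductase, was at 0.0283 and 0.0374 in wild type and at 0.494 and 0.212 in the mutants. Pairs included PIR3 with KDX1, XBP1 with SGA1, and PAI3 with SIP18. XBP1, a repressor of cyclin genes in stress, was at 0.0475 and 0.0312 against 0.299 and 0.335. Whether transcription running from a gene into the next plays a part was not tested.

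No gene passed the antisense test. Of 5013 genes tested on the opposite strand 0 passed in limma, and 165 had an unadjusted p under 0.05. Prior degrees of freedom were 2.55 in that fit, against 37.7 for sense levels. The sense fit without the filter on low values, with 2.40, called 2 genes. The 0 antisense calls therefore cannot show that antisense levels were unchanged. The antisense share of coverage was 2.69% and 1.19% in wild type and 1.61% and 2.24% in the mutants. Median log2 antisense levels, -4.07 and -5.81 against -4.83 and -4.19, spread more within wild type than between the groups. DCV1 had the smallest p (0.000712). Its antisense level was 0.0177 and 0.0138 in wild type and 0.308 and 0.171 in the mutants. LDS1, next by p, was at 0.00934 and 0.00706 against 0.139 and 0.110. TMN2 went the other way, at 0.227 and 0.254 against 0.0412 and 0.0600.

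Loss of Hst3 and Hst4 leaves the mark in place and loss of Rtt109 removes it, so the mutants were also compared with each other. In that contrast 72 of 5211 genes passed (1.38%), 41 higher (0.787%) and 31 lower (0.595%) in the double deletion. The median difference over all genes was 0.41 on the log2 scale, with each library centred 2 genes were higher and 12 lower, and on the values normalized to 1 these were 4 and 22. Of the 122 genes that rose against wild type, 10 were higher and 3 lower than in the rtt109 deletion. The other 109 did not pass, which does not show that the mutants act alike for them.

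Of the general stress genes, HSP12 was at 83.4 and 54.2 in the rtt109 deletion beside 52.5 and 18.3 in the double deletion, and the cell wall gene PIR3 was at 7.86 and 10.6 beside 5.90 and 4.56. In the direct contrast 3 of the 27 general stress genes were lower in the double deletion and 0 higher. GRE1 was 1 of those 3, 0.738 and 0.804 beside 3.43 and 2.56 (log2 difference -1.87, limma adjusted p = 0.00286). Both comparisons with wild type use the same wild-type libraries.

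Genes higher in the double deletion than in the rtt109 deletion came from other groups. Levels over all genes were also higher in the double deletion, by a median of 0.41 on the log2 scale. Summed coverage in the rtt109 libraries was 474278 and 611350. With each library centred 2 genes were higher, and which of the genes below kept their call is not given here. After RTT109 itself, SSB1 had the largest difference without overlap, 2.65 ± 0.37 (adjusted p = 1.85e-05). HUG1, at 0.799 and 0.546 in the rtt109 deletion, differed by 1.85 (adjusted p = 0.00451). INO1 differed by 1.88 (adjusted p = 0.00408), BNA2 by 1.55 (adjusted p = 0.0158) and ZRT1 by 1.95 (adjusted p = 0.0240). HO, the mating-type switching endonuclease expressed in late G1, was at 2.02 and 2.30 in the double deletion and at 0.374 and 0.353 in the rtt109 deletion, with wild type at 2.13 and 4.83. Genes lower in the double deletion included PHO84, the phosphate transporter, at 0.112 and 0.0862 against 0.364 and 2.01, and HSP30, a plasma membrane stress protein, at 0.869 and 0.574 against 3.17 and 13.1. The drug transporter QDR2, at 0.275 and 0.232 against 2.24 and 1.14, was lower as well. HSP30, PHO84 and QDR2 did not pass against wild type.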

How the data were processed

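Polyadenylated RNA was read in 6 libraries, 2 per genotype, grouped by title. The authors' deposited table holds other measures than read counts: strand-specific coverage signal for 240976 bins (50 bases each, 16 chromosomes), scaled to the fission yeast spike-in, and the same normalized to 1, per the file headers. The deposited timing score is credited by its header to another publication. CASAVA 1.7.0 is named in the submitters' processing notes; neither aligner nor build was given in the sources used here. Without read counts depth is unknown: the smallest step of coverage was 0.00397 and 0.00543 in wild type and 0.00644 and 0.0124 in the mutants, and 4.84% of bins hold a letter and were not used.

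ORFs were those of the table; 5871 of 6525 matched a RefSeq name (R64), 5791 had a value. A value is the mean over an ORF's bins without the first, last, intronic and shared ones; the 580 genes lowest on average (10%) were left out. limma 3.58.1 (R 4.3.3; 3 residual and 37.7 prior degrees of freedom) ran on log2 values, the pseudocount being percentile 5 of values above 0, and was tested on simulated data. Named genes were those of the genotypes, the 15 largest rises and all falls without overlap, the leading genes of each list, and the 6 largest differences each way between the mutants; others were chosen after their values were seen, and 1 named by the rule is not reported here. Members and lists were chosen with earlier results of these data known. Tests, promoter windows and alternatives are in the report and the closing section.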

Additional observations from a re-analysis of the deposited data

How the results depend on the processing

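The count of 129 genes changed against wild type depended on how the spread was shared. It was 1 with a pseudocount 10 times larger (PIR3), 2 without the filter on low values, 2 with the 4 libraries alone, and 54 with each library centred; leaving out each replicate gave 2 to 123. In the fit of 4 libraries the prior degrees of freedom were 4.42, against 37.7. It was 124 with all bins of the ORF (122 shared), 96 on the values normalized to 1 (91 shared), and 192 with a trend in the spread (124 shared). The 72 genes that differed between the mutants became 0 with the larger pseudocount, 1 without the filter, 14 with centring, 26 on the values normalized to 1, 171 with the trend, and 0 to 89 leaving out each replicate. The causes were not tested beyond the change in prior degrees of freedom. The numbers do not pair the samples by the rule used (a correlation of deviations over 0.1 for every pair): it was 0.0639 for wild type and the double deletion, 0.222 for the mutants and -0.227 for wild type and the rtt109 deletion. With the replicate number as a block the counts were 94 (93 shared) and 12. The difference between the group means of library medians, 0.074 on the log2 scale, ran from -0.079 to 0.228 leaving out each replicate. The timing and 3′ tilt differences kept their direction in every alternative run, including -0.25 with 10 groups of the timing score in place of 4. Antisense calls were 0 in every alternative run, with 58 to 808 genes at an unadjusted p under 0.05. Of 22 genes followed, 96 values kept their call, 58 lost it and 0 turned. Coverage without read counts limits what can be said of genes near the smallest step.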
